A study of Mus musculus with 16 samples.

Results

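The comparison described here set lungs of 4 ovalbumin-challenged mice labelled Prdm11 knockout against lungs of 4 ovalbumin-challenged mice labelled wild type, 8 of the 16 arrays in the series. All mice were female C57BL/6N animals. The challenged mice were 35 weeks old, had been sensitised by an intraperitoneal injection of 10 µg ovalbumin in 2 mg alum, and had later breathed an aerosol of 1% ovalbumin for 30 min on 3 occasions. The other 8 mice, 4 of each genotype, were untreated and 22 weeks old. RNA came from the lung, was hybridised to Illumina mouse bead arrays, 1 per mouse, and was read for 25697 probes. The labels name the genotype only as Prdm11 knockout and give no allele, no breeding scheme and no time of day of collection. Below, "KO-labelled" and "WT-labelled" mean the challenged mice unless untreated mice are named, and every difference is KO-labelled minus WT-labelled on the log2 scale.

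PRDM11 belongs to a family of PR-domain proteins, many of which regulate transcription during development and in immune cells. Inhaled ovalbumin after sensitisation is a standard mouse model of allergic airway inflammation: eosinophils and T cells enter the lung, airway epithelium turns into mucus-secreting goblet cells, and macrophages take on an alternatively activated state that type 2 cytokines induce. In RNA from lung tissue, fewer cells of a type and less RNA per cell cannot be told apart.

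A test was possible for 17810 probes, of which 10475 were bright, with a mean of at least 6.66 (log2 intensity), and 7335 were dim. Every array had nearly the same distribution of values, with medians between 85.4 and 86.5 intensity units, so a value gives a probe's rank on its array more than an amount of RNA. WT-labelled mouse 4 stood apart: its correlation with the other challenged arrays was 0.676 to 0.842, whereas the other 15 arrays correlated at 0.877 or more with each other. KO-labelled mouse 3 stood apart for several lists of lung genes, and its values are given with the lists below. Leaving out both of these mice was tried after the data were seen.

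The genotype labels of the challenged mice could not be checked on Prdm11, which no probe with a gene name covers. At some genes of the same chromosome the challenged groups differed in the opposite direction to the untreated genotypes. The distance of these genes from Prdm11 was not measured. In untreated mice 3 probes of 17810 (0.0168%) differed between genotypes, those for Lrrc57, Rmdn3 and Tmem87a, and all 3 genes lie on chromosome 2, as Prdm11 does. Lrrc57, a leucine-rich repeat protein gene, was at 7.72, 7.77, 7.82 and 7.77 in untreated wild type mice and at 6.39, 6.58, 6.45 and 6.53 in untreated knockout mice. In challenged mice the order was turned, with 6.68, 6.41, 6.89 and 6.40 in the WT-labelled and 7.48, 7.33, 7.01 and 7.48 in the KO-labelled mice. The groups did not overlap in either setting, and the difference was -1.28 untreated (adjusted p = 0.000451) and 0.73 challenged (adjusted p = 0.000737, interaction adjusted p = 0.000104).

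Rmdn3, which encodes a protein that tethers mitochondria to the endoplasmic reticulum, showed the same turn, with -1.13 untreated and 0.51 challenged (interaction adjusted p = 0.00686). Tmem87a, a Golgi membrane protein gene, went from 1.56 to -0.78 (interaction adjusted p = 0.00686). Its challenged values were 8.31, 7.26, 7.72 and 8.08 in the WT-labelled and 6.86, 6.71, 7.84 and 6.85 in the KO-labelled mice, where mouse 3 lay with the WT-labelled mice. Ccndbp1, whose product binds cyclin D, differed by -0.97 untreated (adjusted p = 0.292) and by 0.57 challenged (adjusted p = 0.0201). Mapkbp1, a MAP kinase binding protein gene, kept its sign, with 0.78 untreated and 0.45 challenged, and neither passed the test. The challenged call of Ccndbp1 was lost without WT-labelled mouse 1 (difference 0.37) and that of Rmdn3 without WT-labelled mouse 1 (0.32) or KO-labelled mouse 1. Rmdn3 and Tmem87a were chosen after their values were seen.

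A score over 62 probes of the 51 genes centred on Lrrc57, weighted by the untreated genotype differences and therefore apart in untreated mice by construction, was -0.39 to -0.27 in untreated wild type and 0.27 to 0.32 in untreated knockout mice. The score was 0.19, 0.07, 0.01 and 0.21 in WT-labelled mice 1 to 4. It was -0.16 to -0.14 in KO-labelled mice 1, 2 and 4 and 0.16 in mouse 3. All of these values lay between the ranges of the untreated groups, and that of WT-labelled mouse 3 lay near their middle. The score alone therefore does not place each challenged mouse with an untreated genotype. Of the 9 probes of this stretch with an untreated unadjusted p below 0.01, 6 had the opposite sign in challenged mice, against 18 of 63 over all tested probes. Whether labels were exchanged was not tested further, so every direction below holds for the labels as given.

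**Figure D1:**
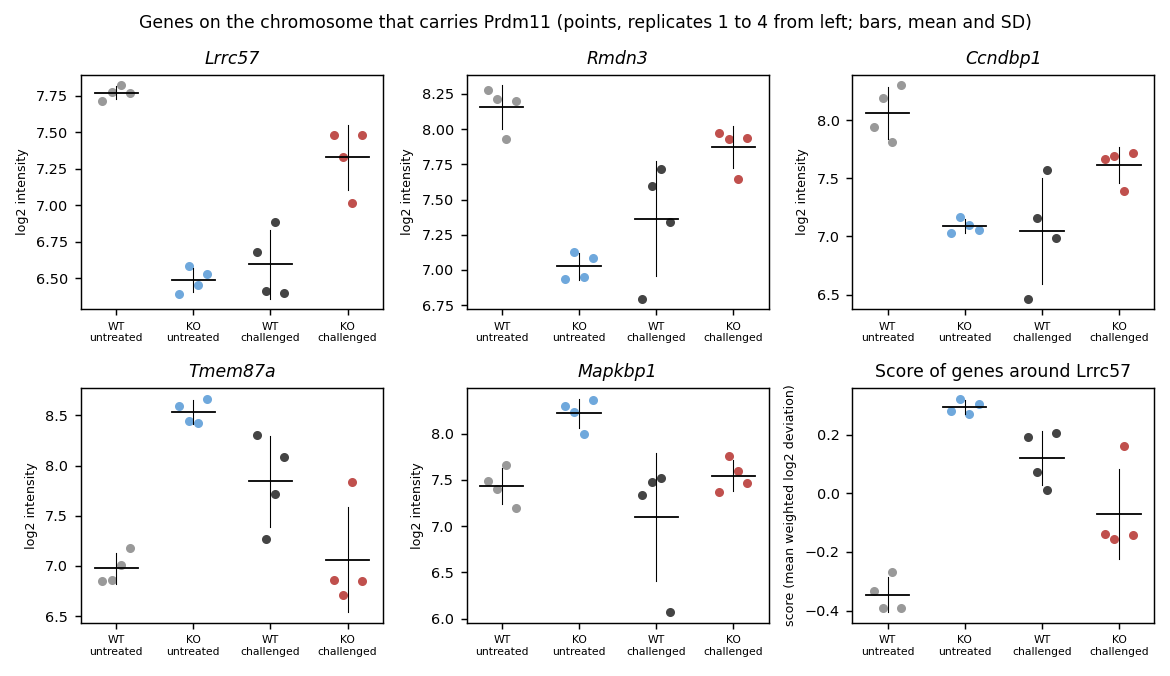
Log2 intensity of 5 genes of chromosome 2 and the score of the genes around Lrrc57 in all 16 mice, with group means and SDs (WT, wild type; KO, knockout, as labelled). For Lrrc57 the untreated knockouts lie below the untreated wild types, and the 4 KO-labelled challenged mice lie above the 4 WT-labelled ones.

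Large parts of the array differed between the challenged groups. At an adjusted p below 0.05 in limma, 7879 of 17810 probes (44.2%) differed, 3764 higher (21.1%) and 4115 lower (23.1%) in KO-labelled mice. Counted over 12648 genes with 1 probe each, 20.4% were higher and 24.3% were lower, the median difference was -0.01, and these shares are the background for every list below. At least a 2-fold difference was measured for 633 of the higher probes (3.55%) and 577 of the lower ones (3.24%). The values of the groups did not overlap for 6122 probes (34.4%). The median size of a difference was 0.37, against 0.08 between the untreated groups.

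The direction changed with brightness. Among bright probes 2236 were higher (21.3%) and 2047 lower (19.5%), or 40.9% called, with a median difference of 0.10. Among dim probes 1528 were higher (20.8%) and 2068 lower (28.2%), or 49% called, with a median of -0.12. In 10 equal bins of probes ordered by mean, the median was -0.18 in the fourth and -0.17 in the fifth and rose to 0.20 to 0.24 in the seventh to the ninth. It was 0.03 in the brightest bin. Among the 6237 probes above the arrays' 75th percentile, 1064 were higher (17.1%) and 788 lower (12.6%), or 29.7% called. Without WT-labelled mouse 4 and KO-labelled mouse 3, 1944 bright probes were higher and 2170 lower and the bright median was 0.0022. Leaving out WT-labelled mouse 4 alone gave 1991 higher, 2179 lower and a median of 0.006. Leaving out KO-labelled mouse 3 alone gave 1924 higher, 1860 lower and a median of 0.1007. The direction among bright probes thus rests on WT-labelled mouse 4.

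Receptor genes of smell and taste, which lung hardly expresses and which here serve as a measure of dim probes, moved with the group. Of their 640 tested probes 385 were lower and 12 higher in KO-labelled mice, with a median of -0.43. The receptor median per array was 6.12 to 6.29 in WT-labelled and 5.94 to 6.02 in KO-labelled mice, without overlap, and 6.02 to 6.13 in untreated mice. With this median as a covariate 197 probes were called, 62 of them among the 7879. In a fit of the 8 challenged arrays alone 3336 were called. Of 109 named genes that passed the test, 2 also passed with the receptor covariate, Ccdc144b and Sftpd, and the part of the dim-probe shift in the other results was not tested.

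**Figure D2:**
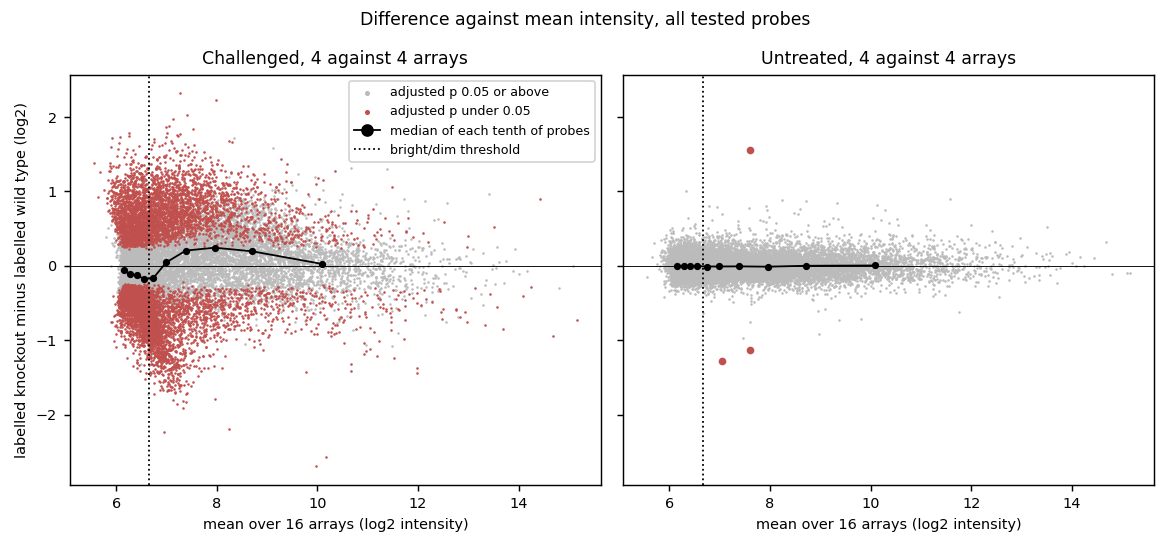
Difference between genotype labels against mean log2 intensity for the 17810 tested probes, in challenged mice (left) and untreated mice (right); red points had an adjusted p below 0.05, and the black line joins the medians of 10 equal bins of probes. The challenged median dips to -0.18 left of the dotted bright threshold and rises above 0 to its right, while the untreated medians stay near 0.

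The largest differences belonged to genes of mixed function. Ccdc144b, a coiled-coil protein gene of unknown role, was at 6.34, 6.61, 6.12 and 6.21 in WT-labelled and at 8.15, 8.72, 8.84 and 8.85 in KO-labelled mice. The groups lay far apart, and the 5-fold difference (2.32 ± 0.19, SE of the fit, adjusted p = 2.66e-05) was the largest rise among bright probes. A probe for Nfic, a nuclear factor I transcription factor gene, read 6.43, 6.43, 6.40 and 5.57 against 8.28, 8.58, 7.96 and 7.52 (difference 1.88 ± 0.25, adjusted p = 0.000161). Every KO-labelled mouse lay above every WT-labelled mouse.

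Fzd7, a Wnt receptor gene, read 6.40, 6.65, 6.40 and 5.91 in WT-labelled and 7.84, 8.04, 7.69 and 7.65 in KO-labelled mice. Its values were nearly level within each group and apart between them (difference 1.46 ± 0.15, adjusted p = 6.68e-05). Untreated wild type and knockout means of Fzd7 were 8.08 and 7.96, so the WT-labelled mice were the ones away from the untreated level. Sgms1, which makes sphingomyelin, was at 6.69, 6.08, 6.76 and 5.77 against 7.96, 8.43, 7.78 and 7.54 (difference 1.60 ± 0.25, adjusted p = 0.000418), again with untreated means of 7.84 and 7.60 closer to the KO-labelled mice.

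Actb, the cytoplasmic actin gene, gave the largest falls but its probes disagreed. On a first probe it was at 11.69, 11.16, 10.91 and 13.04 in WT-labelled and at 8.37, 8.75, 9.52 and 9.39 in KO-labelled mice (difference -2.69 ± 0.52, adjusted p = 0.00139), and a second probe fell by 2.57 (adjusted p = 0.00152). The other 3 tested probes of Actb differed by 0.01, -0.08 and -0.67 and did not pass the test. These values give no single level or direction for the gene.

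Tnfrsf10b, the mouse death receptor for TRAIL, read 9.16, 9.04, 8.95 and 10.85 against 7.13, 7.11, 7.55 and 7.42 (difference -2.20 ± 0.33, adjusted p = 0.000363). WT-labelled mouse 4 was highest, and the remaining WT-labelled mice also lay above every KO-labelled one. This was 1 of 4 tested probes of Tnfrsf10b, picked for its difference, and the others are not given. Mrps14, a mitochondrial ribosomal protein gene, read 8.36, 7.81, 7.43 and 9.87 against 6.48, 6.26, 6.88 and 6.41 (difference -1.86 ± 0.36, adjusted p = 0.00141). Nr0b1, an orphan nuclear receptor of steroid-making tissues, read 8.34, 7.96, 7.56 and 10.02 against 6.54, 6.54, 6.69 and 6.48 (difference -1.91 ± 0.36, adjusted p = 0.00135). In both genes the order of the WT-labelled mice was the same, with mouse 4 far above the others.

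Among dim probes Ttc14, a tetratricopeptide repeat gene, read 5.78, 5.17, 5.19 and 5.01 against 7.20, 7.45, 6.88 and 6.79 (difference 1.79 ± 0.20, adjusted p = 8.22e-05). Itgb1bp2, which encodes the muscle protein melusin, read 5.90, 7.04, 5.10 and 5.45 against 7.59, 7.30, 7.90 and 7.69 (difference 1.75 ± 0.29, adjusted p = 0.000654). The WT-labelled values of both lay below the arrays' 40th percentile (6.24 to 6.25) in at least 3 of 4 mice, so no fold is given. Lypd9, a gene of the Ly6 and uPAR domain family, went the other way with 7.19, 6.98, 6.88 and 8.48 against 5.44, 6.08, 5.97 and 5.97 (difference -1.52 ± 0.27, adjusted p = 0.000977).

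The circadian clock had the highest share of called members among the 45 lists, 73.3% against 44.7% of all genes. In the clock, the CLOCK and BMAL1 proteins bind E-box letters in DNA and switch on Per and Cry genes, whose proteins repress them, and Nr1d and Ror receptors and the D-box factors DBP, TEF and HLF form further loops. Of 15 clock genes tested 8 were higher and 3 lower, with a median difference of 0.45, beside 20.4% higher, 24.3% lower and -0.01 over all genes. The counts were 7 and 4, with a median of 0.62, without WT-labelled mouse 4 and KO-labelled mouse 3. With the receptor covariate the median was 0.19. The 8 challenged arrays alone called 5 higher and none lower. When 1 mouse was left out, 6 to 8 were higher and 2 (without WT-labelled mouse 1 or 2 or KO-labelled mouse 2, 3 or 4) to 5 (without WT-labelled mouse 4) lower. In untreated mice the median was -0.04.

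Promoters of 13 of the 15 clock genes are in the RefSeq table for GRCm38.p6, with 18 windows of 300 bases that run from 250 before to 50 after a start site. They are shown for Ciart, which was lower, and for Tef and Dbp, which were higher, to set the letters that clock proteins bind beside both directions. The E-box CACGTG, which reads alike on both strands, is in capitals, and no D-box TTATGTAA was found on either strand in the 18 windows.
Ciart, chr3:95882179-95882478, minus strand: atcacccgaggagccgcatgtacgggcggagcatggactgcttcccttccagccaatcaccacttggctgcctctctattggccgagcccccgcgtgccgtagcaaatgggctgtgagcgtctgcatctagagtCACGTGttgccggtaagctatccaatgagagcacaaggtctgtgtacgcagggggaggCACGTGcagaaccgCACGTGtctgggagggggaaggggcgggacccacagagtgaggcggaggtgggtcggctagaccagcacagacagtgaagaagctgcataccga
Tef, first start, chr15:81802423-81802722, plus strand: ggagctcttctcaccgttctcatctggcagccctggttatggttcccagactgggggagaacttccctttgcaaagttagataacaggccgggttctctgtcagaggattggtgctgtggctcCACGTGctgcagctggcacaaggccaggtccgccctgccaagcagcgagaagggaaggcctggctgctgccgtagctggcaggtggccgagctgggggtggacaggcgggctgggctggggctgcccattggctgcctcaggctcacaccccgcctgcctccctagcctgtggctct
Tef, second start, chr15:81811164-81811463, plus strand: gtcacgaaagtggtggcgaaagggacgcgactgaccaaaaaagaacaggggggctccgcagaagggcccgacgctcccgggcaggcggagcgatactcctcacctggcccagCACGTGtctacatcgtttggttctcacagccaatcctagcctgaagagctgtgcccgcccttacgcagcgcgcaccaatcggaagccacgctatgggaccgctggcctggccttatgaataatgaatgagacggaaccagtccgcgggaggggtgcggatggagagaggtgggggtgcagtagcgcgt
Dbp, chr7:45704997-45705296, plus strand: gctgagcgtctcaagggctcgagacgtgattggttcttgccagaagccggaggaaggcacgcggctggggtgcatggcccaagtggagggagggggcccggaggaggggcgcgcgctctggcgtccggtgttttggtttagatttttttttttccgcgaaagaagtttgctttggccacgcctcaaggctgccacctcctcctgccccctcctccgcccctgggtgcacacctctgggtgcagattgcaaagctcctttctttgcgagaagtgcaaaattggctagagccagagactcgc

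The Ciart window held 3 E-boxes, each Tef window 1, and the Dbp window none. E-boxes lay in 4 of the 18 clock windows, in windows of Ciart, Tef and Per1, and in 7.15% of all 32851 windows of this length, and the D-box in 0.938% of them. The E-box was thus present in windows of a gene that was lower, Ciart, and of a gene that was higher, Tef, and a match of letters is no measure of binding.

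Dbp, a D-box transcription factor gene whose RNA swings widely over the day, was at 8.75, 9.12, 8.72 and 8.86 in WT-labelled and at 10.54, 10.71, 9.98 and 9.94 in KO-labelled mice. All KO-labelled mice lay above all WT-labelled mice by 2.7-fold on average (1.43 ± 0.20, adjusted p = 0.000271). Per2, a repressor of the clock, read 6.53, 6.87, 7.36 and 6.59 against 8.56, 8.70, 8.18 and 7.75 (difference 1.46 ± 0.21, adjusted p = 0.000308), and its other probe differed by 1.55. Further tested probes of Nr1d2, Tef, Nr1d1, Ciart and Clock are not given. Nr1d2, which encodes the repressor REV-ERBβ, read 7.51, 8.15, 7.81 and 5.86 against 9.12, 9.29, 8.87 and 8.79 (difference 1.68 ± 0.35, adjusted p = 0.00206). Mouse 4 was lowest among the WT-labelled mice, and the difference was 1.19 to 1.95 when any 1 mouse was left out.

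Rora, the activator that competes with REV-ERB proteins, read 6.49, 7.01, 6.57 and 6.21 against 7.76, 7.97, 7.56 and 7.28 (difference 1.07 ± 0.16, adjusted p = 0.000345). Cry2, a partner of the PER proteins, read 5.77, 5.80, 6.02 and 5.69 against 6.67, 7.12, 6.73 and 6.65 (difference 0.97 ± 0.14, adjusted p = 0.000273). The groups of both genes lay apart, and the WT-labelled values of Cry2 were below the 40th percentile in 4 of 4 mice. Cry2 lies on chromosome 2, as Prdm11 does, and a part of that shared chromosome in its difference was not tested. Tef read 7.28, 9.09, 7.78 and 7.32 against 8.90, 9.55, 9.09 and 8.15 (difference 1.05 ± 0.33, adjusted p = 0.0196), with WT-labelled mouse 2 as high as the KO-labelled mice. Tef was not called without WT-labelled mouse 4 and KO-labelled mouse 3 (adjusted p = 0.0715). Bhlhe40, a light- and hypoxia-responsive repressor, differed by 0.59 ± 0.15 (adjusted p = 0.00685) and Nr1d1, encoding REV-ERBα, by 0.45 ± 0.17 (adjusted p = 0.0411), both with overlapping groups. The call of Nr1d1 was lost on leaving out any of 4 single mice (WT-labelled 1 or 3, KO-labelled 1 or 2), and that of Tef without WT-labelled mouse 1 or KO-labelled mouse 2.

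The lower clock genes were Ciart, Hlf and Npas2. Ciart, a repressor known for a strong daily rhythm, read 8.36, 8.05, 8.28 and 9.79 against 7.70, 7.70, 7.23 and 7.38 (difference -1.12 ± 0.30, adjusted p = 0.0086). Hlf, the third of the D-box factors, read 7.34, 7.14, 7.24 and 8.74 against 6.47, 6.59, 6.49 and 6.61 (difference -1.08 ± 0.26, adjusted p = 0.0045). Both lay apart between groups, and in both WT-labelled mouse 4 was highest, without which the differences were -0.73 and -0.70. Npas2, a stand-in for CLOCK measured on a dim probe, differed by -0.27 ± 0.10 (adjusted p = 0.0441), a call lost on leaving out WT-labelled mouse 1 or 2 or KO-labelled mouse 2, 3 or 4. Arntl, which encodes BMAL1, read 7.82, 7.66, 7.60 and 7.14 against 7.02, 6.98, 7.60 and 7.33 and did not pass the test (difference -0.32 ± 0.17, adjusted p = 0.138). Without WT-labelled mouse 4 and KO-labelled mouse 3 it did, at -0.58 (adjusted p = 0.00561). Clock differed by -0.12 ± 0.11 (adjusted p = 0.395). The difference between the challenged and the untreated contrast passed for Per2, Dbp, Rora and Cry2 (interaction adjusted p = 0.013, 0.0265, 0.0466 and 0.0291).

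**Figure D3:**
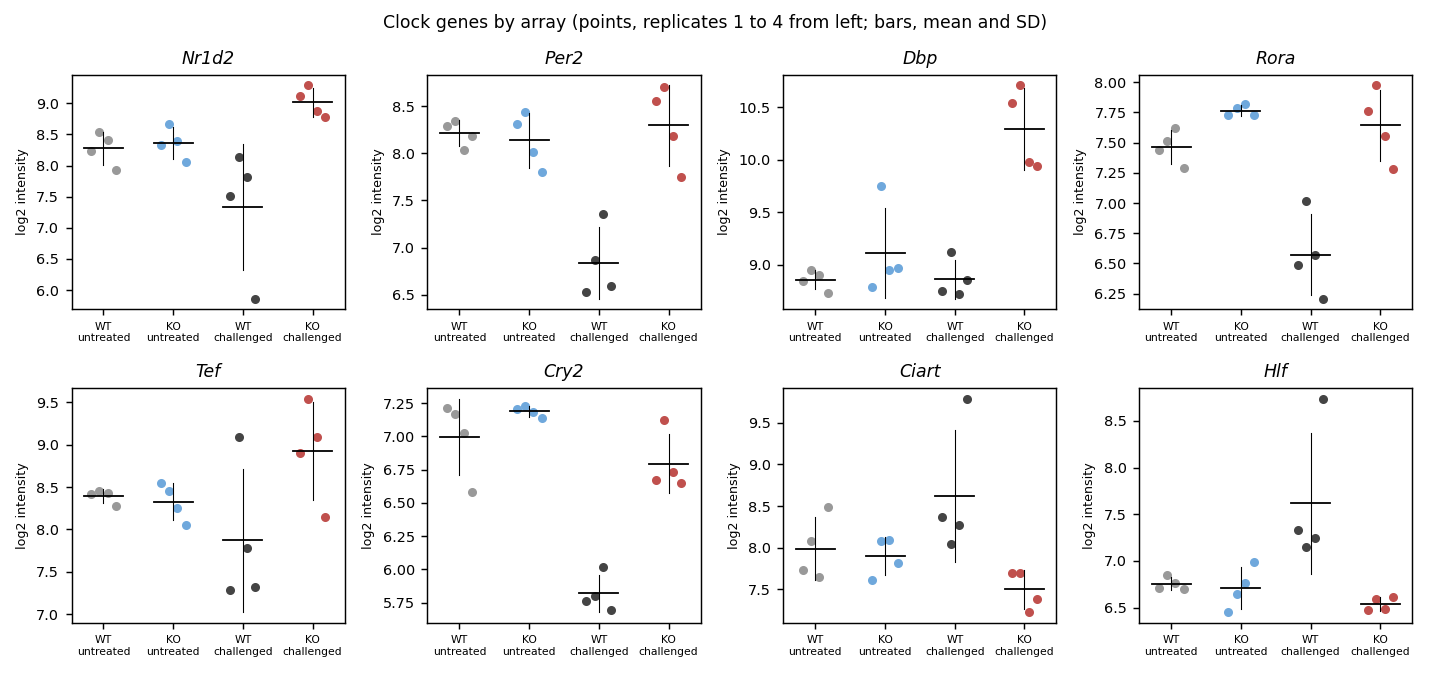
Log2 intensity of 8 clock genes in all 16 mice by group (WT, wild type; KO, knockout, as labelled), with means and SDs. In Per2, Dbp, Rora, Cry2 and Nr1d2 every KO-labelled challenged mouse lies above every WT-labelled one, and in Ciart and Hlf every one lies below.

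Endothelial genes were lower in KO-labelled mice. Of 34 genes that mark blood and lymph vessel lining, 15 fell, 29 had a negative difference, and the median was -0.45. The mean level of the list was 8.74 to 9.30 in WT-labelled and 7.61 to 8.77 in KO-labelled mice, and the 7.61 was mouse 3, the others being at 8.69 to 8.77. Without KO-labelled mouse 3 and WT-labelled mouse 4, 12 fell and 2 were higher, with a median of -0.29. Leaving out WT-labelled mouse 3 alone brought the count to 7 lower and 2 higher, WT-labelled mouse 1 to 9 lower, and KO-labelled mouse 3 to 10 lower and 2 higher with a median of -0.30. The 8 challenged arrays alone called 2, both lower, and with the mean level of skeletal muscle genes as a covariate 3 fell and 2 were higher. The median was negative in each of these fits.

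Car4, a carbonic anhydrase of lung capillaries that was also on the list for alveolar macrophages, read 9.79, 9.44, 10.08 and 10.10 against 8.61, 8.85, 7.32 and 8.90. The groups lay apart by 2.7-fold (-1.43 ± 0.27, adjusted p = 0.00118), and the untreated difference of 0.42 had the other sign (interaction adjusted p = 0.014). Cdh5, the cadherin of endothelial junctions, read 8.90, 8.32, 8.87 and 9.01 against 7.89, 7.96, 6.87 and 7.85 (difference -1.13 ± 0.22, adjusted p = 0.00151). Ramp2, the partner of the adrenomedullin receptor, read 11.27, 11.11, 11.98 and 11.43 against 10.46, 11.05, 8.81 and 10.53 (difference -1.24 ± 0.33, adjusted p = 0.00873). In all 3 genes mouse 3 was the lowest KO-labelled mouse, and the other KO-labelled mice still lay below every WT-labelled mouse. Without mouse 3 the difference of Ramp2 was -0.77.

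Vwf, the clotting factor of endothelial granules, read 10.96, 10.46, 11.46 and 11.27 against 10.45, 10.17, 8.27 and 10.69 (difference -1.14 ± 0.38, adjusted p = 0.0235). Tmem100, a target of BMP signalling in vessels, read 9.96, 9.66, 10.74 and 9.64 against 9.27, 9.90, 7.34 and 9.31 (difference -1.04 ± 0.39, adjusted p = 0.0425). Both had KO-labelled mouse 3 far below the rest and overlapping groups, and without that mouse the differences were -0.60 and -0.51. The call of Vwf was lost without WT-labelled mouse 3, and that of Tmem100 without WT-labelled mouse 1 or 3 or KO-labelled mouse 1 or 3. Pecam1, which all endothelial cells carry, read 9.60, 9.19, 9.87 and 8.85 against 9.11, 9.30, 8.17 and 9.17 and did not pass (difference -0.44 ± 0.23, adjusted p = 0.123), but did without WT-labelled mouse 4 and KO-labelled mouse 3, at -0.36 (adjusted p = 0.0486).

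Genes of the alveolar epithelium had negative medians and few calls. Of 16 genes of alveolar type 1 cells, the flat gas-exchange cells, 2 fell and 1 rose, with a median of -0.33. When 1 mouse was left out, the count that fell ran from 0 (without WT-labelled mouse 3, median -0.15) to 6 (without KO-labelled mouse 2, median -0.52), and without KO-labelled mouse 3 the median was 0.01. None was called in the 8 challenged arrays alone. Ager, the receptor that marks these cells, read 11.79, 11.80, 12.43 and 11.97 against 10.87, 11.87, 8.62 and 11.12 (difference -1.38 ± 0.45, adjusted p = 0.0235). Emp2, a membrane protein, differed by -0.88 ± 0.32 (adjusted p = 0.0354), a call lost on leaving out any of 5 single mice (WT-labelled 1 or 3, KO-labelled 1, 3 or 4). Without KO-labelled mouse 3 the differences were -0.71 for Ager and -0.51 for Emp2, and Ager was not called without WT-labelled mouse 3 (adjusted p = 0.0503). Mouse 3 was lowest in both genes, and without that mouse and WT-labelled mouse 4 the list median was -0.07. Spock2, a proteoglycan gene, was the member that rose, from 6.13, 6.25, 6.81 and 6.05 to 7.23, 7.28, 6.46 and 7.11 (difference 0.71 ± 0.21, adjusted p = 0.0148).

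Of 20 genes of type 2 cells, which make surfactant, 4 fell and 3 rose, with a median of -0.29. Sftpc, their defining surfactant protein, read 13.83, 13.75, 13.89 and 14.39 against 13.35, 13.79, 11.97 and 13.33 (difference -0.85 ± 0.27, adjusted p = 0.0202). Sftpb, a surfactant protein needed for breathing, read 10.74, 11.06, 10.90 and 10.60 against 9.93, 10.63, 8.07 and 9.42 (difference -1.31 ± 0.35, adjusted p = 0.00828). KO-labelled mouse 3 was again lowest. Abca3, the lipid transporter of surfactant granules, differed by -0.67 ± 0.20 (adjusted p = 0.0158) and Ctsh, the protease that trims surfactant proteins, by -0.52 ± 0.16 (adjusted p = 0.0176). Without KO-labelled mouse 3 and WT-labelled mouse 4, 3 fell and 5 rose and the median was 0.16, so the sign of the list turned, as it did without KO-labelled mouse 3 alone, at 0.12. Without that mouse the differences were -0.47 for Sftpc, -0.83 for Sftpb, -0.43 for Abca3 and -0.31 for Ctsh. Without KO-labelled mouse 2, 7 fell, and in the 8 challenged arrays alone none did.

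Sftpd, the collectin of innate defence that type 2 and club cells secrete, rose in every KO-labelled mouse. It read 14.51, 14.18, 14.02 and 14.79 against 15.48, 15.07, 15.07 and 15.48 (difference 0.91 ± 0.16, adjusted p = 0.000741). The value 15.48 was the highest on any array. The arrays' sorted values were almost identical, so that value gives the top rank on an array more than a level. Scgb1a1, described below, held it in WT-labelled mice 1, 2 and 3, and read 15.07 and 13.53 in KO-labelled mice 1 and 4. Sftpd passed under each alternative run, with an adjusted p of 0.0304 at most. Fasn, a fatty acid synthase, and Etv5, a transcription factor of type 2 cells, rose by 1.27 and 1.17 on dim probes (adjusted p = 0.000298 and 0.000595), with all WT-labelled values below the 40th percentile.

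Airway and stromal genes gave few calls. Of 11 club cell genes 2 were lower, 1 to 5 when 1 mouse was left out, the 5 without WT-labelled mouse 4 and the 1 without WT-labelled mouse 1, 2 or 3 or KO-labelled mouse 4. Scgb1a1, the secretoglobin that defines club cells, read 15.48, 15.48, 15.48 and 14.51 against 15.07, 14.51, 14.95 and 13.53 (difference -0.72 ± 0.28, adjusted p = 0.0465), and the call was lost on leaving out any of 5 single mice. Of the WT-labelled values 3 stand at 15.48, the highest value on any array, which gives the top rank more than a level. The difference and its p are therefore not exact. Without KO-labelled mouse 4 the difference was -0.40. Cckar, the other, differed by -0.55 ± 0.11 on a dim probe (adjusted p = 0.00223). Of 25 fibroblast and matrix genes 2 were lower and 3 higher, with a median of -0.17 and of 0.04 without KO-labelled mouse 3 and WT-labelled mouse 4. Leaving out KO-labelled mouse 3 alone gave a median of 0.08, and without KO-labelled mouse 2, 4 were lower.

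Inmt, a methyltransferase abundant in lung stroma, read 11.27, 11.85, 12.46 and 11.55 against 10.38, 11.84, 8.89 and 10.24 (difference -1.45 ± 0.41, adjusted p = 0.012). Mfap4, a microfibril protein of elastic fibres, read 10.93, 10.43, 11.03 and 10.78 against 10.01, 10.14, 7.30 and 10.06 (difference -1.42 ± 0.45, adjusted p = 0.0198). Both had their lowest value in KO-labelled mouse 3, without which the difference of Mfap4 was -0.72. The higher members were Lox, which cross-links collagen and elastin (0.88, adjusted p = 0.00726), Fgf7, an epithelial growth factor (0.85, adjusted p = 0.00402), and Col1a2, a chain of type I collagen (0.83, adjusted p = 0.00665).

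Genes of striated muscle were higher in KO-labelled mice, and lung tissue proper does not make most of them. All 20 tested skeletal muscle genes had a positive difference, 8 of them rose, and the median was 1.05. The mean level of the list was 8.70 to 11.47 in WT-labelled and 11.04 to 11.70 in KO-labelled mice, and WT-labelled mice 2 and 3 marked the ends of the range of their group. The count was 4 without WT-labelled mouse 4 and KO-labelled mouse 3. Leaving out WT-labelled mouse 2 gave 17, and WT-labelled mouse 3 gave 5 and a median of 0.51. The count was also 4 without KO-labelled mouse 1, 3 or 4, and 2 in the 8 challenged arrays alone.

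Myh4, the myosin of fast muscle fibres, read 8.08, 9.18, 6.19 and 6.64 against 10.67, 9.46, 9.63 and 9.24. WT-labelled mice 3 and 4 were low, mouse 2 was close to the KO-labelled mice, and the groups did not overlap (4.68-fold, difference 2.23 ± 0.48, adjusted p = 0.00254). Pygm, the glycogen phosphorylase of muscle, read 6.61, 7.51, 5.68 and 6.07 against 8.46, 8.19, 8.77 and 8.35 (difference 1.97 ± 0.29, adjusted p = 0.000294). Myoz1, a Z-disc protein of fast fibres, read 6.57, 8.90, 5.22 and 5.98 against 8.56, 8.44, 8.64 and 8.48 (difference 1.86 ± 0.54, adjusted p = 0.0129). Mybpc1, a myosin-binding protein, read 9.37, 9.52, 6.90 and 6.92 against 10.23, 9.22, 10.00 and 9.91 (difference 1.66 ± 0.51, adjusted p = 0.0171). Mybpc1 was not called without WT-labelled mouse 4 and KO-labelled mouse 3 (adjusted p = 0.0623).

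Of 24 cardiac muscle genes, which cardiac sleeves of pulmonary veins also express in mice, 8 rose and 2 fell, with a median of 0.78. The counts were 5 and 1 without WT-labelled mouse 4 and KO-labelled mouse 3. The number that rose was 13 without WT-labelled mouse 2 or KO-labelled mouse 2, and 5 without WT-labelled mouse 3 (median 0.43) or without KO-labelled mouse 1, 3 or 4. It was 1 in the 8 challenged arrays alone. Tnni3, cardiac troponin I, read 6.02, 7.37, 6.34 and 6.05 against 8.28, 6.96, 8.57 and 8.41 (difference 1.61 ± 0.34, adjusted p = 0.00219). Hspb7, a small heat shock protein of heart, read 7.58, 8.77, 6.43 and 6.00 against 9.59, 8.18, 9.13 and 9.22 (difference 1.84 ± 0.45, adjusted p = 0.00565). Pln, which regulates the calcium pump of heart and smooth muscle, read 6.34, 7.93, 7.44 and 6.81 against 9.05, 7.17, 9.42 and 9.02 (difference 1.53 ± 0.43, adjusted p = 0.0113). KO-labelled mouse 2 lay with the WT-labelled mice in all 3. The members that fell were Myh7, the slow cardiac myosin (-0.74 ± 0.22, adjusted p = 0.0134, and -0.46 without WT-labelled mouse 4), and Nkx2-5, a cardiac transcription factor on a dim probe (-0.30 ± 0.10, adjusted p = 0.0218).

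Mitochondrial genes were higher as well. Of 48 genes of oxidative phosphorylation 18 rose and 1 fell, 43 had a positive difference, and the median was 0.28. Without WT-labelled mouse 4 and KO-labelled mouse 3, 13 rose and 2 fell. Leaving out 1 mouse gave 10 (without KO-labelled mouse 1) to 31 (without KO-labelled mouse 2) that rose, 12 without KO-labelled mouse 3 among them, and medians of 0.20 to 0.48. The 8 challenged arrays alone called 6 higher and 1 lower. With the mean of skeletal muscle genes as a covariate, 5 rose, 1 fell and the median was 0.11. Cox7b, of cytochrome c oxidase, read 7.47, 7.55, 6.72 and 6.33 against 8.47, 7.69, 8.50 and 8.41 (difference 1.25 ± 0.25, adjusted p = 0.00161). Uqcrb, of complex III, read 10.08, 10.25, 9.86 and 9.33 against 11.33, 10.30, 11.21 and 11.08 (difference 1.10 ± 0.22, adjusted p = 0.00162). KO-labelled mouse 2 was lowest of its group in both.

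Sdhd, of succinate dehydrogenase, differed by 1.10 ± 0.42 (adjusted p = 0.0424), a call lost without KO-labelled mouse 1, 3 or 4, and by 0.47 without WT-labelled mouse 4. Uqcrq, of complex III on a dim probe, was the member that fell (-0.87 ± 0.17, adjusted p = 0.00146). How much muscle lay in each sample was not measured, and the part of that in these results was not tested beyond the covariate. Lep, the adipocyte hormone leptin, fell on the list of fat genes from 8.56, 7.87, 7.68 and 9.33 to 7.26, 6.79, 7.0 and 6.92 (difference -1.37 ± 0.26, adjusted p = 0.00128), while that list had a median of 0.50 over 17 genes, or 0.01 without WT-labelled mouse 4 and KO-labelled mouse 3. The median for adipose tissue was 0.27 without WT-labelled mouse 4, 0.23 without KO-labelled mouse 3 and 0.76 without KO-labelled mouse 2.

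**Figure D4:**
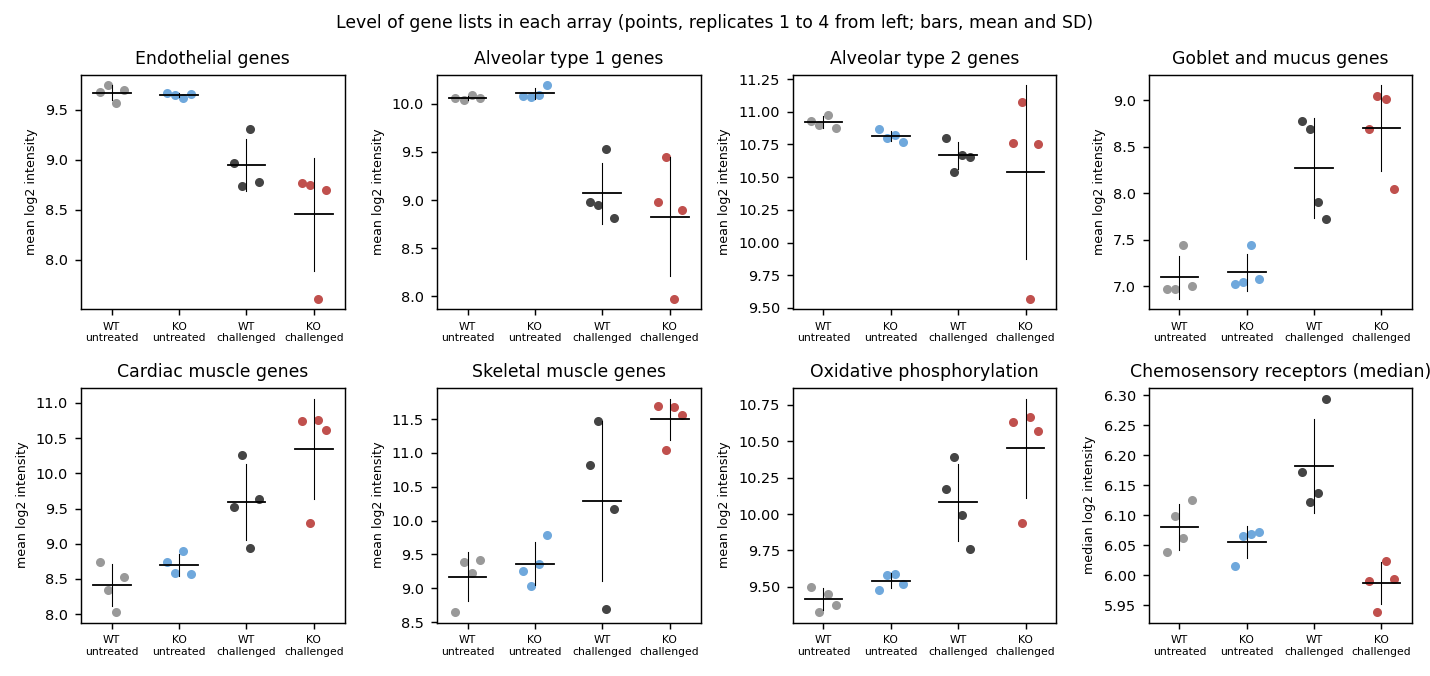
Mean log2 level of 7 gene lists and median of the smell and taste receptor probes in each of the 16 mice, with group means and SDs. KO-labelled mouse 3 lies far below its group for endothelial and alveolar genes, KO-labelled mouse 2 lies below its group for cardiac and oxidative phosphorylation genes, and the receptor medians of the challenged groups do not overlap.

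Genes of mucus and of alternatively activated macrophages were largely not separated by genotype label, although they differed widely between mice. Mast cell and basophil genes, given below, were an exception. Of 15 genes for goblet cells and mucus, 4 were higher and 1 was lower, with a median of 0.41, which was 0.09 without WT-labelled mouse 4 and KO-labelled mouse 3. Leaving out 1 mouse gave medians of 0.13 (without WT-labelled mouse 4) to 0.82 (without KO-labelled mouse 4), with 0.19 without WT-labelled mouse 3, 0.25 without KO-labelled mouse 3, 0.73 without WT-labelled mouse 1 and 0.71 without WT-labelled mouse 2. Clca1, a secreted protein of goblet cells, read 13.69, 13.33, 11.35 and 11.32 against 13.04, 13.63, 13.72 and 10.94 and did not pass (difference 0.41 ± 0.91, adjusted p = 0.728). Muc5ac, the inducible airway mucin, read 9.67, 8.87, 6.29 and 6.19 against 9.18, 9.31, 9.36 and 7.09 and did not pass (difference 0.98 ± 0.66, adjusted p = 0.23). In both genes WT-labelled mice 3 and 4 and KO-labelled mouse 4 were low, and the others high.

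Foxa3, a transcription factor of goblet cell differentiation, read 6.43, 7.28, 6.13 and 5.99 against 7.36, 7.91, 8.05 and 7.06 (difference 1.14 ± 0.27, adjusted p = 0.00424). Fxyd3, a regulator of the sodium pump, read 6.94, 7.61, 6.22 and 5.47 against 7.65, 8.21, 7.90 and 7.16 (difference 1.17 ± 0.34, adjusted p = 0.0129). Itln1, an intelectin, rose by 0.91 (adjusted p = 0.00346) and Tff1, a trefoil peptide, by 0.71 (adjusted p = 0.00798). Tff3, another trefoil peptide read on a dim probe, fell by 0.52 (adjusted p = 0.00426). Tff1 and Tff3 were chosen after their values were seen.

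Of 18 genes of alternatively activated macrophages 1 passed the test, and the median was -0.04. Retnla, which type 2 cytokines induce strongly, read 14.79, 14.39, 13.97 and 13.72 against 14.51, 14.79, 14.51 and 14.02 (difference 0.24 ± 0.49, adjusted p = 0.702). Chil4, a chitinase-like protein, read 10.57, 9.85, 6.72 and 7.85 against 10.74, 10.13, 10.75 and 7.77 (difference 1.10 ± 0.72, adjusted p = 0.215). Mmp12, the macrophage elastase, read 11.76, 10.06, 8.78 and 12.05 against 11.35, 10.17, 8.25 and 10.74 (difference -0.54 ± 0.65, adjusted p = 0.512). The mice of both groups were spread over the same wide range, and Clca1 and Mmp12 turned their sign without WT-labelled mouse 4 and KO-labelled mouse 3. Slc7a2, an arginine transporter, was the member called, at -0.59 ± 0.22 (adjusted p = 0.0441), a call lost without those mice (adjusted p = 0.0732), without WT-labelled mouse 4 alone (difference -0.26) or without any 1 KO-labelled mouse. Without KO-labelled mouse 3 alone 4 other members rose, and without WT-labelled mouse 1, 2 did.

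Of 5 eosinophil genes tested, Il5ra rose and Gata1 fell. Il5ra, the receptor for the eosinophil cytokine IL-5, read 5.73, 5.65, 5.82 and 5.82 against 6.61, 6.45, 6.35 and 6.47 on a dim probe (difference 0.72 ± 0.12, adjusted p = 0.000538), with every WT-labelled value below the 40th percentile. Gata1, a transcription factor of eosinophils and red cells, differed by -0.67 ± 0.24 (adjusted p = 0.0322), a call lost without KO-labelled mouse 1, 2 or 4, and by -0.34 without WT-labelled mouse 4. Without WT-labelled mouse 3, 3 of the 5 fell. Prg2, eosinophil major basic protein, read 7.05, 6.91, 7.43 and 8.17 against 7.20, 6.36, 6.46 and 7.61 and did not pass (difference -0.48 ± 0.27, adjusted p = 0.152).

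Of 7 genes of mast cells and basophils 3 fell and 1 rose, or 57.1% called against 44.7% of all genes. The mean level of the list was 7.82 to 8.06 in WT-labelled and 7.42 to 7.77 in KO-labelled mice, without overlap. Of the 7 genes 3 were bright, and the part of the dim-probe shift was not tested. Cpa3, mast cell carboxypeptidase, read 8.07, 7.70, 7.23 and 8.66 against 6.74, 6.62, 6.52 and 6.92 (difference -1.22 ± 0.22, adjusted p = 0.00113), with all KO-labelled mice lower. Mcpt1 and Mcpt8, proteases of mast cells and basophils, fell by 0.53 and 0.37 on dim probes (adjusted p = 0.00809 and 0.0164). Hdc, which makes histamine, rose by 0.50 (adjusted p = 0.0143). Without WT-labelled mouse 4 and KO-labelled mouse 3 the list again had 3 lower and 1 higher and its median went from -0.37 to -0.01, and to -0.02 without KO-labelled mouse 3 alone.

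Cytokine signalling and chemokine genes were mixed. Of 12 genes of type 2 cytokine signalling 2 rose, Il5ra and Stat6, and Il13ra2 fell. Stat6, which carries the IL-4 and IL-13 signal, read 5.41, 5.73, 5.71 and 5.27 against 6.51, 6.86, 6.29 and 6.87 (difference 1.10 ± 0.19, adjusted p = 0.000725), with all WT-labelled values below the 40th percentile. Il13ra2, the decoy receptor for IL-13, read 6.51, 6.64, 6.36 and 7.72 against 5.43, 5.91, 6.19 and 6.19 (difference -0.88 ± 0.24, adjusted p = 0.00948), with all KO-labelled values below it, and differed by -0.57 without WT-labelled mouse 4. Without KO-labelled mouse 3, 3 of the list rose and 2 fell. Of 20 chemokines 5 rose and 1 fell, and with 1 mouse left out 4 to 6 rose and 0 (without KO-labelled mouse 2 or 3) to 3 (without WT-labelled mouse 2) fell.

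Cxcl1, a neutrophil chemokine, read 6.51, 6.39, 6.22 and 5.93 against 7.37, 8.07, 7.25 and 7.79 on a dim probe (difference 1.36 ± 0.20, adjusted p = 0.000337). Ccl11, the eosinophil chemokine eotaxin, was the one that fell and read 8.16, 7.62, 7.40 and 8.45 against 7.57, 7.25, 7.11 and 7.59 (difference -0.53 ± 0.19, adjusted p = 0.0356), a call lost without WT-labelled mouse 4 and KO-labelled mouse 3 (adjusted p = 0.217) and on leaving out either of them, WT-labelled mouse 1 or KO-labelled mouse 2. Without WT-labelled mouse 4 its difference was -0.35. The Ltc4s probe, for the enzyme that makes leukotriene C4, read 6.08, 6.07, 5.92 and 6.04 against 7.19, 7.08, 7.09 and 7.41 (difference 1.16 ± 0.13, adjusted p = 6.68e-05). All its WT-labelled values lay below the 40th percentile.

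T cell genes were mixed. Of 17 tested, Bcl11b, Ctla4 and Icos rose and Cd247 fell. Bcl11b, a transcription factor that maintains T cell identity, read 7.64, 7.79, 8.21 and 7.18 against 8.31, 8.35, 9.25 and 9.0 (difference 1.02 ± 0.23, adjusted p = 0.00301). Cd247, the zeta chain of the T cell receptor complex, read 8.14, 7.50, 7.52 and 9.34 against 6.70, 6.70, 7.03 and 6.81 (difference -1.32 ± 0.29, adjusted p = 0.00318). The groups of both lay apart in opposite directions. Ctla4 and Icos, checkpoint and costimulatory receptors, rose by 0.73 and 0.40 (adjusted p = 0.00524 and 0.0167), and Icos lost its call without WT-labelled mouse 4 and KO-labelled mouse 3 (adjusted p = 0.102) and without the latter alone (adjusted p = 0.0533). Leaving out WT-labelled mouse 3 gave 7 higher, and KO-labelled mouse 3 gave 2 higher and 4 lower.

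In macrophages and granulocytes single genes stood out. Ctsd, a lysosomal protease abundant in macrophages, read 6.28, 6.29, 6.33 and 5.95 against 7.80, 7.49, 7.42 and 7.61 (difference 1.37 ± 0.16, adjusted p = 8.94e-05). Fcgr4, an activating IgG receptor, read 7.46, 7.26, 8.09 and 6.62 against 8.81, 9.34, 8.17 and 8.69 (difference 1.39 ± 0.28, adjusted p = 0.00177). Ptpre, a tyrosine phosphatase of blood cells, read 11.96, 12.09, 12.14 and 12.16 against 10.86, 10.62, 11.37 and 11.03 (difference -1.12 ± 0.18, adjusted p = 0.000435), and the untreated means of 10.46 and 10.66 were closer to the KO-labelled mice. All 3 were apart between groups. Cx3cr1, the fractalkine receptor of monocytes, rose by 1.01 on a dim probe (adjusted p = 0.0023). Ptpre and Fcgr4 are on no list and lay outside the rule for named genes or in its form for probes above the 75th percentile.

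Of 13 complement genes 3 rose and 1 fell, and 1 rose without WT-labelled mouse 4 or KO-labelled mouse 1, 2 or 4. Cd59a, which blocks the membrane attack complex, read 8.80, 9.09, 8.71 and 7.12 against 9.94, 9.57, 9.45 and 9.81 (difference 1.26 ± 0.30, adjusted p = 0.00454), and its untreated difference was -0.73 (interaction adjusted p = 0.0162). C5ar1, the receptor for the fragment C5a, read 7.38, 6.71, 6.97 and 8.62 against 6.40, 6.33, 6.17 and 6.53 (difference -1.06 ± 0.28, adjusted p = 0.00859). Groups were apart in both, and WT-labelled mouse 4 was the extreme mouse in both, without which the differences were 0.82 and -0.66.

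Red cell genes were lower. Of 6 tested 3 fell and 1 rose, with a median of -0.60. In untreated mice the median of the list had the other sign, at 0.44, with no member called. The interaction passed for 3 of the 6. Hba-a1, an α-globin, read 14.39, 14.95, 14.95 and 15.07 against 13.97, 13.53, 13.89 and 14.18 (difference -0.95 ± 0.16, adjusted p = 0.00077). Hbb-bt, a β-globin, read 12.01, 12.37, 12.41 and 12.52 against 11.37, 10.93, 11.57 and 11.50 (difference -0.98 ± 0.16, adjusted p = 0.000482). Alas2, the first enzyme of heme synthesis in red cells, fell by 0.80 (adjusted p = 0.00388). Hbb-b2 rose by 0.93 (adjusted p = 0.01), and because β-globin copies are nearly identical in sequence its probe and that of Hbb-bt may not separate them. Counts without WT-labelled mouse 4 and KO-labelled mouse 3 were again 3 and 1.

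Cell division genes held 60.6% called members, against 44.7% of all genes, in both directions. The group means of the list level were 6.96 to 7.54. Of the 1781 probes in each of the fifth, sixth and seventh brightness bins (means 6.64 to 7.65), 1043, 1035 and 895 were called. The part of brightness in the share of the list was not tested. Of 33 tested 14 rose and 6 fell, with a median of 0.27, and without WT-labelled mouse 4 and KO-labelled mouse 3 the counts were 14 and 7. Cdc20, which activates the anaphase-promoting complex, read 7.15, 7.21, 7.02 and 6.36 against 8.39, 8.39, 8.01 and 8.19 (difference 1.31 ± 0.16, adjusted p = 0.000111). Plk1, a mitotic kinase, read 6.16, 5.93, 6.27 and 5.83 against 7.21, 7.06, 7.23 and 7.20 on a dim probe (difference 1.13 ± 0.13, adjusted p = 8.99e-05). Cdca8, the borealin subunit of the chromosomal passenger complex, read 7.46, 7.32, 7.36 and 8.94 against 6.65, 6.60, 6.62 and 6.25 (difference -1.24 ± 0.28, adjusted p = 0.00338). Tyms, thymidylate synthase, read 8.61, 7.91, 7.92 and 9.75 against 7.53, 7.17, 7.15 and 7.42 (difference -1.23 ± 0.29, adjusted p = 0.00437). Genes of one process thus lay apart between the groups in opposite directions, and in the falling ones WT-labelled mouse 4 was highest.

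Immediate early genes, which cells switch on within minutes of a stimulus, gave 4 higher and 7 lower of 23, with a median of -0.28. Without KO-labelled mouse 3, 4 were lower, and without KO-labelled mouse 2, 2 were higher. Dusp1, a phosphatase that curbs MAP kinases, read 11.20, 11.32, 11.74 and 10.31 against 10.19, 10.32, 9.82 and 10.18 (difference -1.01 ± 0.27, adjusted p = 0.00807). Fos read 9.54, 9.42, 8.82 and 10.06 against 8.71, 8.49, 8.36 and 8.69 (difference -0.90 ± 0.24, adjusted p = 0.00782). Jund, also of the AP-1 family, read 6.43, 6.53, 6.69 and 5.90 against 7.32, 7.71, 7.28 and 7.13 (difference 0.97 ± 0.21, adjusted p = 0.00245). Fos and Jund lay apart between the groups, in opposite directions, and Dusp1 overlapped in WT-labelled mouse 4.

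Among stress and signalling lists, 2 of 23 interferon-stimulated genes rose and 5 fell, and 4 rose without WT-labelled mouse 3. Ddx58, the RNA sensor RIG-I, read 7.60, 7.60, 7.31 and 8.26 against 6.73, 6.76, 6.98 and 6.78 (difference -0.88 ± 0.17, adjusted p = 0.00139). Isg15, a ubiquitin-like protein, rose by 0.87 on a dim probe (adjusted p = 0.0094). Of 28 genes of BMP and TGF-β signalling 4 rose and 7 fell, and 4 fell without WT-labelled mouse 1 or KO-labelled mouse 4. Nog, the BMP antagonist noggin, read 7.64, 7.30, 7.51 and 9.48 against 6.49, 6.57, 6.61 and 6.66 (difference -1.40 ± 0.33, adjusted p = 0.00408), and Id3, a BMP target, rose by 1.08 on a dim probe (adjusted p = 0.0191). Without WT-labelled mouse 4 the differences were -0.90 for Nog and 0.61 for Id3. Of 20 genes of the unfolded protein response 4 rose and 4 fell, and 1 or 2 rose without WT-labelled mouse 4 or any 1 KO-labelled mouse. Ddit3, encoding CHOP, read 8.90, 8.35, 8.56 and 9.74 against 7.78, 7.47, 7.66 and 7.76 (difference -1.22 ± 0.22, adjusted p = 0.00092), while Hspa5, the chaperone BiP, rose by 0.68 (adjusted p = 0.0219), a call lost without WT-labelled mouse 4 or KO-labelled mouse 4.

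Relatives of the labelled gene were mostly lower. Of 12 PRDM family genes and relatives 6 fell and 1 rose, with a median of -0.33, and the same counts held without WT-labelled mouse 4 and KO-labelled mouse 3. With 1 mouse left out 4 to 6 fell, and the 8 challenged arrays alone called 2, both lower. Setd7, a lysine methyltransferase, read 7.11, 7.28, 6.57 and 8.91 against 6.20, 6.25, 6.41 and 6.34 (difference -1.17 ± 0.33, adjusted p = 0.0105), and differed by -0.69 without WT-labelled mouse 4. Prdm10, a zinc finger regulator of transcription, read 7.08, 7.37, 7.09 and 7.91 against 6.38, 6.56, 6.41 and 6.24 (difference -0.97 ± 0.16, adjusted p = 0.000577). Prdm1, which encodes BLIMP1 of plasma cells and effector T cells, read 6.82, 6.85, 7.16 and 7.69 against 6.41, 6.39, 6.30 and 6.23 on a dim probe (difference -0.80 ± 0.16, adjusted p = 0.00172). All 3 lay below in every KO-labelled mouse. Their means over all arrays were 6.65 to 6.79, in the brightness bin with a median of -0.17, and the part of that shift was not tested.

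**Figure D5:**
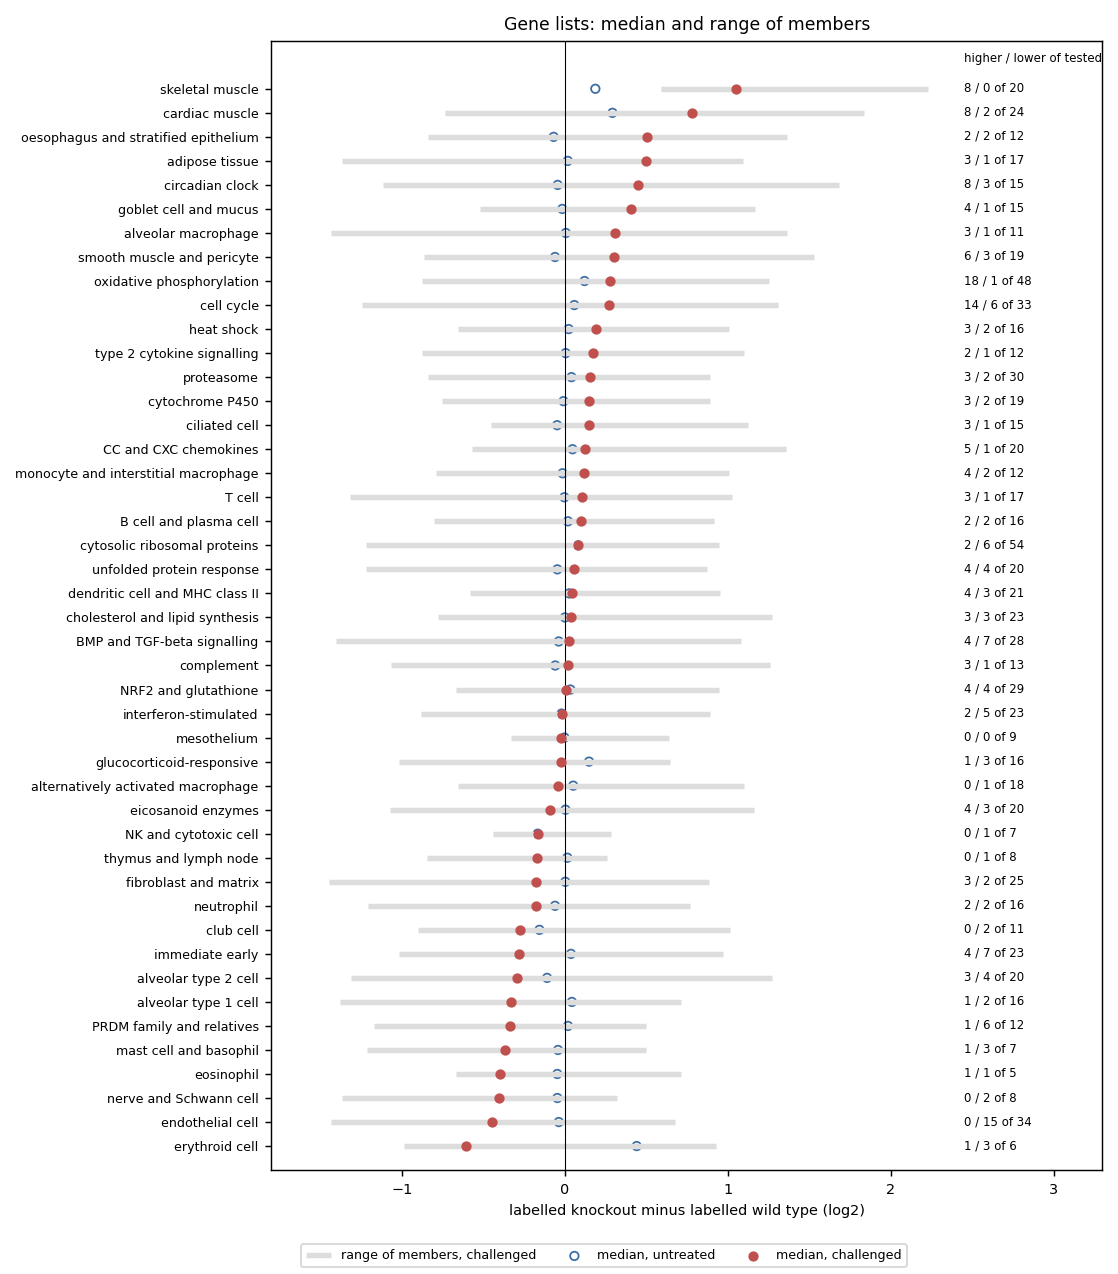
Median difference between genotype labels for 45 gene lists in challenged mice (red) and untreated mice (open), with the range of challenged members (grey bar) and, at the right, how many members were higher and lower of those tested. Skeletal and cardiac muscle lists lie highest at 1.05 and 0.78, and red cell and endothelial lists lowest at -0.60 and -0.45.

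The challenged and untreated differences were compared in the same fit. The interaction of genotype label and challenge passed for 1662 probes (9.33%), which also spans the change from 22 to 35 weeks of age. It passed for 48 of the 119 named genes, and without WT-labelled mouse 4 and KO-labelled mouse 3 for 3010 probes. Among the 48 genes Lrrc57, Rmdn3 and Tmem87a had untreated differences of the other sign that passed their own test. Further genes, Ccndbp1, Cd59a and Car4 among them, had untreated differences of the other sign that did not pass.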

How the data were processed

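Lung RNA of 16 mice, 4 in each of 4 groups, was measured on Illumina mouse bead arrays, 1 array per mouse; the groups were taken from the labels. The deposited values were intensities, which the authors made with GenomeStudio 2011.1, per the submitters' processing notes; background correction and normalization are not given in the sources used here. The sorted values of all arrays were almost identical, so the intensities behave as already normalized between arrays, and no further normalization was applied. Values under 16 (1123 of 411152) were set to 16 and log2 was taken. A probe was tested when it lay above its array's 40th percentile on at least 4 arrays, and called bright when its mean reached the mean of the arrays' 60th percentiles.

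One limma 3.58.1 model in R 4.3.3 held all 4 groups, with moderated variances, and p-values were adjusted over all 17810 tested probes by Benjamini and Hochberg. The ± beside a difference is the standard error of that fit. Each probe had 1 variance for all 4 groups, so ± and p are too small where challenged mice varied more than untreated mice. The labels give each array its own mouse; 4 per group limits the precision. The sources used here give no chip or scan, so no batch was tested. Gene symbols came from the platform annotation, which gave 1 symbol for 23978 probes and none for 1719, and 23962 were matched by gene ID to RefSeq. A gene was read on its brightest tested probe. Genes named for the largest differences and on no list were instead read on the probe picked for its difference. Further probes of a gene are given only for Actb and Per2 and may differ from the probe shown. Promoter sequences are RefSeq's for GRCm38.p6.

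The comparison, the 45 gene lists and the tests were chosen with earlier results of these data known. The rule for named genes took the 12 largest differences in each direction among bright probes and 5 among dim ones with groups apart, up to 3 called members per list, lung cell markers, and Lrrc57, Ccndbp1 and Mapkbp1 for the label check. It gave 76 of the 119 genes named; the other 43, further list members and Rmdn3, Tmem87a, Fcgr4, Ptpre, Fzd7 and Sgms1, were chosen after their values were seen. Alternatives covered the floor, normalization, filter, threshold, array weights, the 8 arrays alone, a replicate block, covariates, 1 probe per gene and leaving out mice. The model was run on simulated data with changed probes of known size. Those data had independent noise with the same spread in all groups. The run therefore does not cover unequal spreads, an outlying mouse or a dim-probe shift.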

Additional observations from a re-analysis of the deposited data

Results flagged for a closer look

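In 332 checks of a group of 4 mice, over the named genes, list levels and array scores, 35 found 1 mouse far from the others, and chance gives such a mouse in about 5% of groups. The log2 value of that mouse is given against the range of the other 3 mice of its group. For single genes, KO-labelled mouse 2 lay far from the rest of its group in Cox7b (7.69 against 8.41 to 8.50). For single genes, KO-labelled mouse 3 lay far from the rest of its group in Ccndbp1 (7.39 against 7.67 to 7.72), Rmdn3 (7.65 against 7.93 to 7.97), Tmem87a (7.84 against 6.71 to 6.86), Cdh5 (6.87 against 7.85 to 7.96), Mfap4 (7.30 against 10.01 to 10.14) and Id3 (6.37 against 6.91 to 6.99). For single genes, KO-labelled mouse 4 lay far from the rest of its group in Muc5ac (7.09 against 9.18 to 9.36), Cdca8 (6.25 against 6.60 to 6.65) and Hspa5 (8.11 against 7.63 to 7.70). For single genes, WT-labelled mouse 4 lay far from the rest of its group in Mapkbp1 (6.07 against 7.34 to 7.51), Scgb1a1 (14.51 against 15.48 to 15.48), Tnfrsf10b (10.85 against 8.95 to 9.16), Hlf (8.74 against 7.14 to 7.34), Slc7a2 (8.54 against 7.17 to 7.35), Ctsd (5.95 against 6.28 to 6.33), Cdca8 (8.94 against 7.32 to 7.46), Nog (9.48 against 7.30 to 7.64), Nfic (5.57 against 6.40 to 6.43) and Gata1 (8.10 against 6.68 to 6.82). For the mean level of gene lists, KO-labelled mouse 2 lay far from the rest of its group in cardiac muscle (9.29 against 10.62 to 10.76), erythroid cell (9.27 against 9.59 to 9.65) and oxidative phosphorylation (9.94 against 10.57 to 10.66). For the mean level of gene lists, KO-labelled mouse 3 lay far from the rest of its group in alveolar macrophage (8.08 against 8.51 to 8.58), endothelial cell (7.61 against 8.69 to 8.77), mesothelium (7.79 against 8.47 to 8.56) and eicosanoid enzymes (7.05 against 7.41 to 7.45). For the mean level of gene lists, WT-labelled mouse 1 lay far from the rest of its group in eicosanoid enzymes (7.38 against 7.28 to 7.29). For the mean level of gene lists, WT-labelled mouse 3 lay far from the rest of its group in NK and cytotoxic cell (8.20 against 7.65 to 7.72). For the mean level of gene lists, WT-labelled mouse 4 lay far from the rest of its group in glucocorticoid-responsive (9.06 against 9.75 to 9.76), NRF2 and glutathione (8.25 against 8.90 to 9.03), cytochrome P450 (7.58 against 8.24 to 8.28), proteasome (8.92 against 9.38 to 9.40) and PRDM family and relatives (7.68 against 7.38 to 7.42). WT-labelled mouse 4 also had a median correlation of 0.70 with the other challenged arrays, against 0.91 to 0.94 for the rest of its group.

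The difference between genotype labels was not the same in challenged and untreated mice for 48 named genes, by the interaction term in limma at an adjusted p below 0.05. The challenged minus the untreated difference, in log2 units, was positive for Lrrc57 (2.01), Ccndbp1 (1.54), Rmdn3 (1.64), Per2 (1.53), Dbp (1.18), Rora (0.77), Cry2 (0.78), Myh4 (2.31), Pygm (2.06), Uqcrb (1.07), Sftpd (0.80), Foxa3 (1.26), Il5ra (0.77), Ctsd (1.16), Cx3cr1 (1.08), Stat6 (1.00), Cxcl1 (1.07), Cd59a (2.00), Cdc20 (1.22), Plk1 (1.09), Fzd7 (1.59), Sgms1 (1.85), Ccdc144b (2.26), Nfic (1.18), Ttc14 (1.77), Itgb1bp2 (1.55), Etv5 (1.37), Fasn (1.06), Lox (1.31) and Ltc4s (1.04). It was negative for Tmem87a (-2.34), Actb (-2.47), Tnfrsf10b (-1.83), Mrps14 (-1.76), Lep (-1.27), Car4 (-1.85), Cpa3 (-1.15), Ptpre (-1.31), Hbb-bt (-1.38), Hba-a1 (-1.26), Dusp1 (-1.36), Ddx58 (-0.84), Prdm10 (-1.04), Prdm1 (-0.77), Ddit3 (-1.12), Lypd9 (-1.46), Tff3 (-0.65) and Alas2 (-1.37). No cause of these differences was tested.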

How the results depend on the processing

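The count of 7879 called probes stayed within 1.5 times under every normalization, floor, filter and weighting tried, but the filters moved the dim calls, to 5683 with no filter and 1135 with a filter at the 60th percentile. The share of called probes that were higher was 44.2% to 52.1% under the scalings, against 47.8%. The 8 challenged arrays alone called 3336 probes, 1667 bright and 1669 dim, with fewer samples and no untreated mice behind each variance. The main fit used 1 variance per probe for all 4 groups, but spreads were not equal. SDs of Ager were 0.09 and 0.18 in untreated wild type and knockout mice and 0.30 and 1.40 in WT-labelled and KO-labelled mice. For Actb they were 1.09 and 0.61 against 0.95 and 0.54. The parts of sample number and spread in the lower count were not tested. The receptor median as a covariate, which does not overlap between the groups, left 197 calls, 172 bright and 25 dim, with medians of -0.0632 and 0.0877, and 3 calls for the interaction. One probe per gene gave 2318 dim calls, and a bright threshold at the 75th percentile 1852 bright and 6027 dim calls. The dim median was -0.0352 after cyclic loess and 0.1181 with the 60th percentile filter. The interaction called 3665 probes with array weights and 3010 without WT-labelled mouse 4 and KO-labelled mouse 3. Leaving out 1 mouse at a time gave 6389 to 8715 calls, 3481 to 4911 bright, 2862 to 3804 dim, and 663 (without KO-labelled mouse 1) to 3611 (without WT-labelled mouse 3) for the interaction. The bright median was then 0.006 (without WT-labelled mouse 4) to 0.142 and the dim median -0.139 to -0.0731. Replicate numbers did not pair the mice (same-number correlations 0.152, -0.026, -0.093 and 0.091), and the replicate block called 7858 probes. A difference turned its sign with the receptor covariate for Mapkbp1 (-0.85), Tmem87a (0.0064), Actb (0.11), Nr0b1 (0.0877), Mrps14 (0.18), Nr1d2 (-0.15), Tef (-0.13), Ciart (0.38), Hlf (0.19), Myh7 (0.36), Sdhd (-0.78), Lep (0.0195), Spock2 (-0.0722), Clca1 (-0.81), Muc5ac (-0.51), Fxyd3 (-0.33), Retnla (-0.36), Mmp12 (0.69), Slc7a2 (0.42), Prg2 (0.39), Cx3cr1 (-0.0924), Ccl11 (0.24), Cd247 (0.40), Cd59a (-0.0832), C5ar1 (0.43), Cdca8 (0.26), Tyms (0.32), Isg15 (-0.16), Nog (0.37), Id3 (-0.71), Setd7 (0.49), Ddit3 (0.005), Gata1 (0.43), Il13ra2 (0.22) and Hbb-b2 (-0.002). It did so with the skeletal muscle covariate for Clca1 (-0.42), Muc5ac (-0.0526), Retnla (-0.0525) and Chil4 (-0.21), with array weights for Clca1 (-0.27) and Mmp12 (0.25), and without WT-labelled mouse 4 and KO-labelled mouse 3 for Clca1 (-0.26) and Mmp12 (0.55). For Mmp12, leaving out 1 mouse gave -1.16 to 0.09, the latter without KO-labelled mouse 3. The cause was not tested. Low signal limits the dim probes, for which the files give no detection p-value.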

Other observations

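Housekeeping and metabolic lists gave few calls and small medians. Of 54 cytosolic ribosomal protein genes 2 were higher and 6 lower, with a median of 0.08. Of 30 proteasome genes 3 were higher and 2 lower, with a median of 0.16, and 24 had a positive difference. The mean level of the proteasome list was 8.92 to 9.40 in WT-labelled and 9.42 to 9.54 in KO-labelled mice, apart by a narrow margin. Of 29 genes of the NRF2 and glutathione pathway, which detoxifies oxidants, 4 were higher and 4 lower, with a median of 0.01, and of 19 cytochrome P450 genes 3 were higher and 2 lower. Of 23 genes of cholesterol and lipid synthesis 3 were higher and 3 lower. The shares of called members in these lists, 14.8% to 27.6%, lay below the 44.7% of all genes. These lists were bright, with challenged group means of 8.09 to 11.32. Of probes above the arrays' 75th percentile 29.7% were called, and in the 2 brightest bins 407 and 396 of 1781. The part of brightness in the shares was not tested.

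Antigen-presenting cell genes, 4 higher and 3 lower of 21, and B cell and plasma cell genes, 2 higher and 2 lower of 16, had medians of 0.05 and 0.10. Ciliated cell genes were 3 higher and 1 lower of 15, with a median of 0.15 that was -0.14 without WT-labelled mouse 4 and KO-labelled mouse 3. Of 19 genes of smooth muscle and pericytes 6 were higher and 3 lower, with a median of 0.30. Leaving out 1 mouse moved these small counts as well: proteasome genes that were higher numbered 2 to 7, the 7 without WT-labelled mouse 2 or 3, and antigen-presenting cell genes (dendritic cell and MHC class II) 1 to 6, the 1 without KO-labelled mouse 4. The smooth muscle and pericyte median was 0.14 without KO-labelled mouse 3 and 0.47 without WT-labelled mouse 1, and the B cell and plasma cell median was -0.17 without WT-labelled mouse 4 and 0.49 without KO-labelled mouse 2. The median of ciliated cell genes was -0.11 without WT-labelled mouse 4, -0.06 without KO-labelled mouse 3 and 0.47 without KO-labelled mouse 4.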
